A study of Mus musculus with 32 samples.

Results

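The cytochrome P450 genes of families 1 to 4 were examined in liver, epididymal white fat (eWAT), inguinal white fat (iWAT) and brown fat (BAT) of mice without Gpr146 (knockout, KO) and their wild-type (WT) littermates. Members were taken by name, as every gene symbol that consists of Cyp, a family number from 1 to 4, a subfamily letter and a gene number. This gave 73 of the 24646 genes in each tissue, with 3 in family 1, 48 in family 2, 7 in family 3 and 15 in family 4. A further 10 genes of these families carry a second letter or a pseudogene suffix and are not counted, among them Cyp4a12a, which is given below beside the other Cyp4a genes. All mice were C57BL/6J males 20 weeks of age that had eaten a high-fat diet (HFD) for 3 months and went without food the night before. The knockout is a whole-body CRISPR deletion, so that all tissues of a KO mouse carry it. Each genotype had 4 mice per tissue, with 1 Affymetrix Mouse Gene 2.1 ST array per mouse and tissue, 32 arrays in all.

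P450 enzymes are heme proteins that insert an oxygen atom into lipids, steroids, drugs and other small molecules, mostly in the endoplasmic reticulum, with electrons from P450 oxidoreductase. Families 1 to 3 are best known for drug and toxicant metabolism in hepatocytes, and many of their genes answer to the receptors AhR (family 1), CAR (Cyp2b) and PXR (Cyp3a). Family 4 enzymes hydroxylate the end of fatty acid chains, and the mouse Cyp4a genes are classical targets of PPARα, the receptor that drives fat burning in the fasted liver. The Cyp2c and Cyp2j enzymes make epoxides of arachidonic acid among other reactions, and Cyp2e1 oxidizes ethanol, acetone and other small molecules.

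Values are log2 expression values, where a difference of 1 is a doubling, and were compared only within a tissue because each tissue was normalized on its own. A gene is called changed where limma, which fits each gene and borrows its spread in part from the others, gave an adjusted p under 0.05 (Benjamini-Hochberg over all genes of the tissue). Gpr146 was lower in all 4 KO mice than in all 4 WT mice of every tissue, with differences of -1.77 in liver, -1.53 in eWAT, -1.55 in iWAT and -1.16 in BAT. The KO means of 4.16 to 4.45 still lay above the median of all values of each tissue, and whether the Gpr146 probes lie inside the deleted stretch was not tested. The titles of the liver KO samples also carry the letters of the other genotype, and Gpr146 in those livers went with the KO label. The markers of hepatocytes were above the median of all liver values in 10 of 10 genes, those of adipocytes were above it in 9 of 9 genes in each fat depot, and those of brown adipocytes were above it in 5 of 5 genes in BAT.

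Some fat arrays stood apart in their content of other tissues, in both genotypes. The mean of 5 B cell markers in iWAT was 7.92, 7.86, 3.37 and 3.26 in WT mice 1 to 4 and 3.73, 7.58, 3.63 and 5.84 in KO mice 1 to 4, and 4 T cell markers had the same high arrays. The mean of 6 skeletal muscle markers in BAT was 3.21, 6.71, 7.72 and 3.10 in WT and 3.18, 7.85, 4.00 and 3.15 in KO mice. Results in iWAT and BAT are therefore also given without the arrays whose list mean was above 5, which leaves 2 WT and 2 KO mice in iWAT and 2 WT and 3 KO mice in BAT. In eWAT, KO mouse 3 had a B cell mean of 4.46 and the other mice 2.56 to 3.03.

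Of the 73 genes, 45 lay above the median of all values in liver, 13 in eWAT, 16 in iWAT and 15 in BAT, each judged by its mean over both genotypes. Liver alone held 32 of them above its median, including every Cyp4a gene and 4 of the 7 Cyp3a genes. In all 4 tissues 10 genes lay above the median, Cyp2d22, Cyp2d40, Cyp2e1, Cyp2j6, Cyp2j9, Cyp2u1, Cyp4b1, Cyp4f13, Cyp4f17 and Cyp4v3. Cyp1b1, a P450 best known outside the liver, was above it in the 3 fat depots and not in liver, and 22 genes were above it in no tissue. Many of these genes are near-identical copies in tandem clusters, and how far the probes of one copy also read its neighbours was not tested.

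Loss of Gpr146 went with more Cyp2e1 mRNA in epididymal white fat, and the livers of the same genotype showed no such difference. In WT eWAT the values of mice 1 to 4 were 8.27, 5.42, 8.75 and 6.27, and in KO eWAT they were 11.07, 10.06, 10.73 and 11.41. All KO values lay above all WT values, and the WT mice differed far more among themselves than the KO mice did. Cyp2e1 rose by 3.64 (SE 0.68, 95% interval 2.12 to 5.16, n = 4 per genotype), a 12.5-fold difference with an adjusted p of 0.0117, the largest difference of any of the 73 genes in the 4 tissues. Without any one mouse the difference ranged from 3.06 to 4.16 and the largest adjusted p was 0.0417, but by the methods' t-test on the same values the adjusted p was 0.0718.

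The same order was seen in iWAT without passing the threshold. Cyp2e1 was 8.16, 5.44, 9.38 and 7.77 in WT iWAT and 10.76, 10.32, 10.76 and 10.23 in KO iWAT, so that the genotypes again did not overlap. The difference was 2.83 (SE 0.68, 95% interval 1.29 to 4.37) with an adjusted p of 0.221, and without the lymphocyte-rich arrays it was 2.18 (SE 0.45, adjusted p = 0.0509). In BAT the values were 6.94, 5.39, 7.99 and 6.73 in WT and 6.998, 9.31, 7.57 and 7.85 in KO mice, and the genotypes overlapped (difference 1.17, SE 0.56, adjusted p = 0.432, and 0.63 with an adjusted p of 0.666 without the muscle-rich arrays). WT mouse 2 was the lowest and WT mouse 3 the highest in each of the 3 fat depots, although the labels do not say whether a number names the same animal in every tissue.

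In liver, where Cyp2e1 is a typical gene of the hepatocytes around the central vein, it was 11.52, 11.56, 11.57 and 11.62 in WT and 11.51, 11.36, 11.49 and 11.54 in KO mice. The mice lay within a narrow band (difference -0.09, 95% interval -0.25 to 0.06, adjusted p = 0.629). Tested as a difference between tissues, the change in liver was smaller than that in eWAT by 3.73 (limma, adjusted p = 0.00671). The changes in eWAT and iWAT differed by 0.81 (SE 1.05, adjusted p = 0.869), those in eWAT and BAT by 2.48 (SE 0.96, adjusted p = 0.148) and those in iWAT and BAT by 1.66 (SE 0.97, adjusted p = 0.602), so that no order among the fat depots was established.

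**Figure D1:**
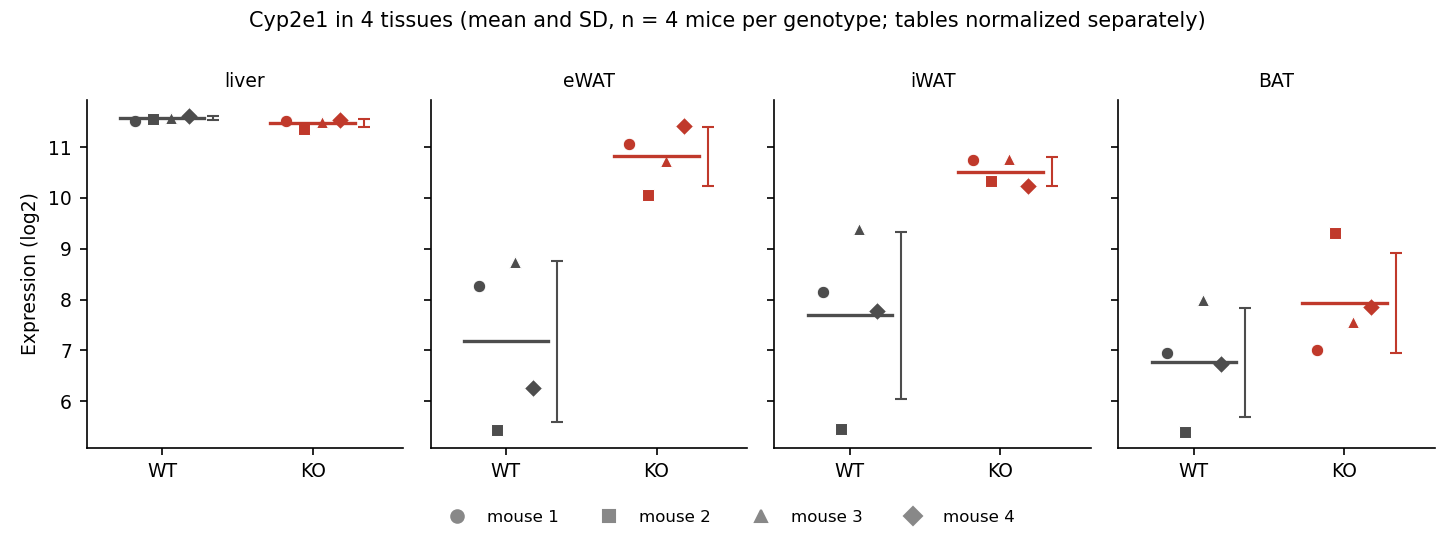
Cyp2e1 expression (log2, vertical axis) in WT and KO mice of each tissue, 1 symbol per mouse with the mean as a line and the SD as a bar. The 4 KO values of eWAT (10.06 to 11.41) and of iWAT (10.23 to 10.76) lay above all WT values of their depot, whereas the genotypes overlapped in liver and BAT.

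Markers of cell types in eWAT moved with genotype as well, in a tissue where 15.2% of all genes were called. Of 9 macrophage markers, 9 fell in KO eWAT (median -2.26), and the mean level of the list in an array ranged from 8.92 to 9.10 in WT mice and from 6.02 to 8.54 in KO mice, with KO mouse 2 the highest. Of 9 adipocyte markers, all 9 were called, 8 higher and 1 (Lep) lower (median 0.51), with list means of 9.15 to 9.55 in WT and 9.83 to 10.15 in KO mice. No defining marker of either list lay below the median of all eWAT values. Their part in the P450 results was not tested, and in whole tissue fewer cells of a type and less RNA per cell cannot be told apart. Of 10 hepatocyte markers, the list means in eWAT were 3.34 to 3.62 in WT and 3.33 to 3.67 in KO mice. In iWAT the macrophage list ranged from 6.58 to 7.69 in WT and from 5.81 to 6.70 in KO mice. The adipocyte list ranged there from 9.73 to 10.13 in WT and from 9.86 to 10.20 in KO mice. By limma 0 genes of either list were called (5 and 1 lower, 0 and 2 higher at an unadjusted p under 0.05). Of all iWAT genes 15.4% passed at that level.

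The 250 bases before the RefSeq start of Cyp2e1 are shown with those of Cyp2c70 and Cyp3a25, whose changes in liver and eWAT are described below. They are RefSeq sequences of GRCm38.p6, 5′ to 3′ on the strand of the gene, at chr7:140763569-140763818 (plus), chr19:40187287-40187536 (minus) and chr5:146009619-146009868 (minus), the last of which is 1 of 2 starts listed for Cyp3a25. Capitals mark matches on either strand to TATAAA, a box found in core promoters, or to AGGTCA, the half-site that nuclear receptors such as PPARα and PXR read in pairs.
Cyp2e1: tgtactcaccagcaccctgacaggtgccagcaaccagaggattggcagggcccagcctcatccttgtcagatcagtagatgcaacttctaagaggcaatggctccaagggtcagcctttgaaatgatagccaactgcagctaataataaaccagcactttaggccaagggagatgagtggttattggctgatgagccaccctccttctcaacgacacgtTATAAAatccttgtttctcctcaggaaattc
Cyp2c70: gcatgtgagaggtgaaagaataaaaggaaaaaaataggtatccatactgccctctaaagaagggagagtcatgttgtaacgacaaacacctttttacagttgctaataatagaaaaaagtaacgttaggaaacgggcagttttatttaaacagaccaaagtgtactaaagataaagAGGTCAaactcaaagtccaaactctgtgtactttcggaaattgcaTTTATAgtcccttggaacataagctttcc
Cyp3a25: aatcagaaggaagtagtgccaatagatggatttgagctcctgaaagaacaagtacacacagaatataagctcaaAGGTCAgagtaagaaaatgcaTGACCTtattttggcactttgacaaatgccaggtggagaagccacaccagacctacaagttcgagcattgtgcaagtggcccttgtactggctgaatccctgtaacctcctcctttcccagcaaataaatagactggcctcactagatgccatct
Cyp2e1 had TATAAA from 31 to 26 bases before its start and Cyp2c70 had its complement from 29 to 24 bases before its start, together with AGGTCA from 74 to 69 bases before it. Among these members, Cyp3a25 had AGGTCA on both strands and no TATAAA in this window.

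A start was listed for 60 of the 73 genes, with 67 starts in all. TATAAA was found on either strand in 35.8% of these windows and in 12.4% of all 32851 windows of the same length. AGGTCA was found in 23.9% and 14.0%, and GCGTG, the core of the AhR site, in 19.4% and 28.2%. AGGTCA in direct repeat with 1 base between (DR1) or with 4 bases between (DR4) was found in 0 of the 67 windows, and in 0.0335% and 0.0152% of all windows. Matches to AGGTCA include any that lie inside a repeat. These are matches of letters and say nothing of binding, and the windows of Cyp4a10, Cyp4a14 and Cyp4a31 were not used here.

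In liver, 1 of the 73 genes was called and it was lower in KO mice (1.37%), where 0.661% of all genes were called, 0.162% higher and 0.499% lower. Without a correction for the number of genes, 5 members were higher and 11 lower at a p under 0.05, 21.9% of the members against 13.3% of all genes. Among the 45 members above the liver median the share was 31.1%, against 19.8% of all genes above it. The median difference of the 73 genes was 0.01, the same as that of all genes.

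The called gene was Cyp4a14, a fatty acid hydroxylase that PPARα induces in fasting. It was 9.93, 9.65, 10.50 and 10.41 in WT livers and 8.45, 9.56, 8.30 and 8.46 in KO livers. Every KO value lay below every WT value, but KO mouse 2 was within 0.1 of the lowest WT mouse. Cyp4a14 fell by 1.43 (SE 0.27, 95% interval -2.02 to -0.84, adjusted p = 0.0427), a 2.69-fold difference. The call was narrow. It was lost without any one array except that of KO mouse 2 (adjusted p from 0.0504 to 0.136) and had an adjusted p of 0.00199 without that mouse, when the difference was -1.72.

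The other Cyp4a genes did not move as 1 block. Cyp4a31 was 6.25, 5.58, 6.65 and 6.44 in WT and 4.52, 6.17, 5.19 and 5.55 in KO livers, lower on average with overlap (difference -0.87, adjusted p = 0.257). Cyp4a10 was 9.80, 8.56, 10.19 and 9.78 in WT and 8.89, 9.38, 8.62 and 9.52 in KO livers (difference -0.48, adjusted p = 0.556). Cyp4a32 pointed the other way, with 6.08, 5.31, 6.18 and 6.37 in WT and 6.34, 7.0001, 6.51 and 7.21 in KO livers (difference 0.78, adjusted p = 0.176). Only the lowest KO mouse and the highest WT mouse of Cyp4a32 crossed. Cyp4a12a, which the naming rule leaves out, was 6.75, 7.18, 7.18 and 6.996 in WT and 6.13, 6.15, 6.39 and 6.27 in KO livers, and fell by 0.79 (SE 0.11, adjusted p = 0.0109) without overlap. Its neighbour Cyp4a12b had a difference of -0.22 (adjusted p = 0.579).

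**Figure D2:**
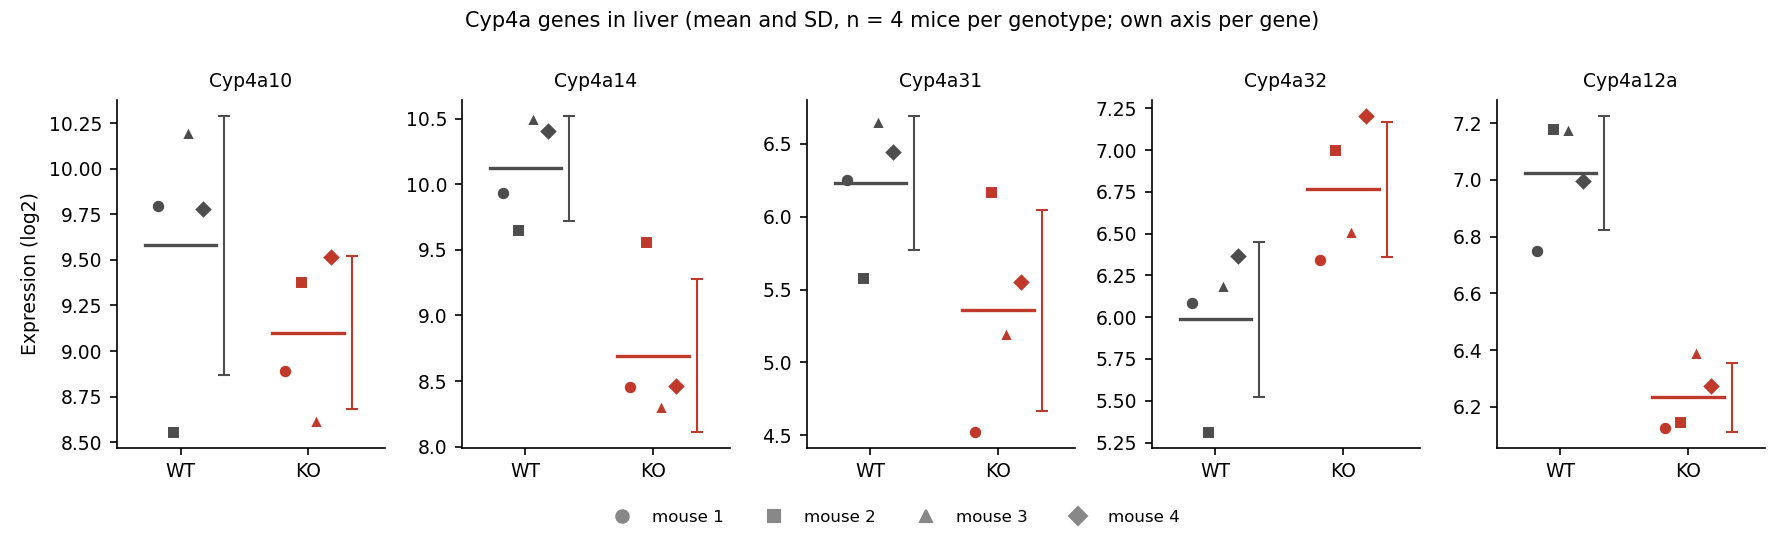
Expression (log2, vertical axis, a separate range for each gene) of the 4 Cyp4a members and of Cyp4a12a in liver, 1 symbol per mouse with the mean as a line and the SD as a bar. KO values lay below all WT values for Cyp4a14 and Cyp4a12a, whereas the genotypes overlapped for Cyp4a10, Cyp4a31 and Cyp4a32.

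In the fat depots all Cyp4a members lay below the median of all values. The lowest adjusted p was 0.0528, for Cyp4a31 in eWAT, which was 2.099, 2.14, 2.14 and 2.27 in WT and 2.58, 2.27, 2.67 and 2.43 in KO mice (difference 0.33). In BAT the smallest p of the 73 genes belonged to Cyp4a32, with 0.87, 0.91, 0.99 and 0.98 in WT and 1.31, 1.14, 1.42 and 1.24 in KO mice (difference 0.34, adjusted p = 0.15). Both sit at the low end of their tables. The difference of Cyp4a14 in eWAT was 0.10 (adjusted p = 0.602), and its change in liver differed from that in eWAT by -1.53 (SE 0.33, adjusted p = 0.0111).

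Other known targets of PPARα were measured beside the Cyp4a genes. Of 15 such genes that are no P450, 1 was called in liver, Vnn1, a pantetheinase, which fell by 1.504 (adjusted p = 0.00167). Another 7 had a lower mean at an unadjusted p under 0.05, and none a higher one. Of all liver genes 0.661% were called and 13.3% passed at the unadjusted level. The median of the list was -0.25 against 0.01 for all genes. Acot1, an acyl-CoA thioesterase, had a difference of -0.88 (adjusted p = 0.0563), whereas Cpt1a, the gate of mitochondrial fat oxidation, had one of -0.10 (adjusted p = 0.798). Ppara itself had a difference of -0.13 in liver (adjusted p = 0.603).

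Cyp3a25, a steroid and drug hydroxylase, had the largest positive difference in liver and narrowly missed the threshold. It was 7.52, 6.97, 5.32 and 6.63 in WT livers and 8.29, 8.94, 8.85 and 8.07 in KO livers, with every KO value above every WT value. The difference was 1.93 (SE 0.38, 95% interval 1.08 to 2.77, adjusted p = 0.0524). Without WT mouse 1 it was 2.23 with an adjusted p of 0.0341. The other 7 of 8 fits without 1 array did not pass (largest adjusted p 0.12). The other 6 Cyp3a genes had differences from -0.33 (Cyp3a44) to 0.50 (Cyp3a11, adjusted p = 0.499). Cyp3a25 and Gpr146 both lie on chromosome 5, with 90 protein-coding genes between them in GRCm38.p6. The other Cyp3a genes and Cyp2w1 lie on chromosome 5 too, and their distances to Gpr146 were not measured. Whether these chromosome segments differ between the genotypes was not tested. In eWAT Cyp3a25 lay below the median of all values with a difference near 0 (adjusted p = 0.985), and the changes in liver and eWAT differed by 1.93 (SE 0.46, adjusted p = 0.0173).

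The Cyp2c genes, the largest subfamily with 15 members, went in both directions in liver. At an unadjusted p under 0.05, 3 were higher (Cyp2c70, Cyp2c65 and Cyp2c44) and 5 lower (Cyp2c67, Cyp2c39, Cyp2c40, Cyp2c68 and Cyp2c38), and 0 passed the adjusted threshold. Cyp2c70, which hydroxylates bile acids to the muricholic acids of mice, was 9.35, 9.27, 8.54 and 8.86 in WT and 10.08, 9.25, 10.22 and 10.32 in KO livers. KO mouse 2 lay among the WT mice and the other KO mice above them (difference 0.96, SE 0.24, adjusted p = 0.105). Without KO mouse 2 the difference was 1.20 with an adjusted p of 0.0105. It did not pass in the other 7 of 8 fits without 1 array (largest adjusted p 0.249).

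Cyp2c67 was 9.55, 9.76, 9.51 and 9.72 in WT and 9.18, 9.09, 9.40 and 9.18 in KO livers, a small difference of -0.42 with little spread and no overlap (adjusted p = 0.0674). Cyp2c39, a female-biased gene known for the oxidation of retinoic acid, was 3.42, 3.98, 3.44 and 4.00 in WT and 3.26, 2.74, 2.96 and 3.09 in KO livers (difference -0.69, adjusted p = 0.0813), again with no overlap. Without KO mouse 3 Cyp2c67 had a difference of -0.48 with an adjusted p of 0.0494. It did not pass in the other 7 of 8 such fits (largest adjusted p 0.175). Cyp2c44, an arachidonic acid epoxygenase, was 0.28 higher with no overlap (adjusted p = 0.268).

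**Figure D3:**
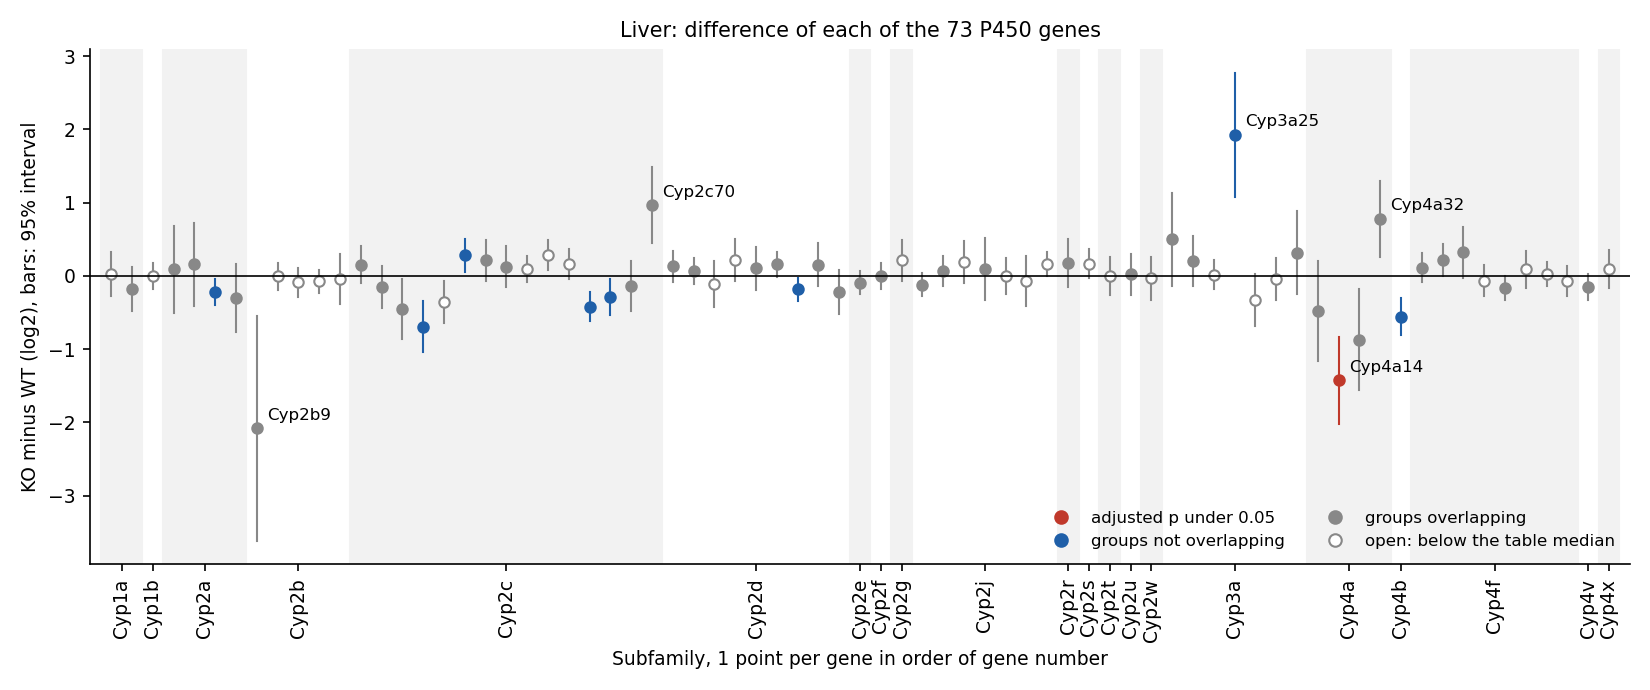
Difference between KO and WT livers (log2, vertical axis) for each of the 73 genes, grouped by subfamily along the horizontal axis, with 95% intervals as bars and open symbols for genes below the median of all liver values. Cyp4a14 (-1.43) is the 1 gene past the adjusted threshold, Cyp3a25 (1.93) has the largest positive difference, and Cyp2b9 (-2.08) the largest negative one with the widest interval.

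Among the remaining subfamilies, Cyp2b9 had the largest negative difference in liver and the largest spread. It was 2.73, 7.07, 4.34 and 4.92 in WT and 2.40, 2.78, 3.41 and 2.14 in KO livers, with WT mouse 1 inside the KO range (difference -2.08, SE 0.70, adjusted p = 0.224). All 5 Cyp2b genes had negative differences, 4 of them between -0.01 and -0.09. Of the 5, only Cyp2b9 lay above the median of all liver values. Cyp4b1, a P450 best known from the lung, was 4.61, 4.66, 4.80 and 4.59 in WT and 3.94, 4.47, 3.98 and 4.04 in KO livers (difference -0.56, adjusted p = 0.0563), with all KO values below all WT values. Without KO mouse 2 Cyp4b1 had a difference of -0.68 with an adjusted p of 0.0035. It did not pass in the other 7 of 8 fits without 1 array (largest adjusted p 0.166). In total 9 members did not overlap between the genotypes in liver, 2 higher and 7 lower, 12.3% against 7.78% of all genes. Among the members of the other larger subfamilies the most changed were Cyp2a22 (-0.31), Cyp2d40 (-0.22), Cyp2j8 (0.19) and Cyp4f15 (0.32), with adjusted p-values from 0.425 to 0.587.

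Several of these genes differ between the sexes in mouse liver. Of 12 female-biased members, 5 were lower and 0 higher at an unadjusted p under 0.05 in KO livers (41.7%, where 13.3% of all genes passed), with a median of -0.34 and 1 call (Cyp4a14). The 3 male-biased members (Cyp2d9, Cyp2u1 and Cyp2f2) had a median of 0.02 with 0 called by limma and 0 at an unadjusted p under 0.05, and the difference between the lists was not tested. Some sex-biased P450 genes outside the naming rule went the other way. Male-biased Cyp4a12a was called lower, as given above, and female-biased Cyp3a41a and Cyp3a41b each had a difference of 0.50 (adjusted p = 0.431 and 0.436). Among genes that are no P450, 1 of 11 male-biased genes was called higher (Selenbp2, 1.34, adjusted p = 0.00427) and 1 of 11 female-biased genes lower (Tox, -0.49, adjusted p = 0.0427). Of all liver genes 0.661% were called. All mice were males.

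Markers of several cell types also differed between the genotypes in liver, where 0.661% of all genes were called and 13.3% had an unadjusted p under 0.05. The mean of 5 Kupffer cell markers ranged from 5.20 to 6.59 in WT and from 3.92 to 5.45 in KO livers, with KO mouse 2 the highest KO mouse. By limma 0 of 5 were called and 5 were lower at an unadjusted p under 0.05. The mean of 9 macrophage markers was 4.24 to 4.66 in WT and 3.67 to 4.47 in KO livers with 0 called by limma (1 higher and 5 lower at an unadjusted p under 0.05), that of 9 adipocyte markers 3.96 to 4.40 and 3.49 to 4.06 with 2 called lower, and that of 7 stellate cell and fibroblast markers 4.13 to 4.64 and 3.40 to 4.00 with 3 called lower. The mean of 5 endothelial markers was 5.17 to 5.38 in WT and 4.19 to 4.88 in KO livers with 3 of 5 called lower, and that of 10 hepatocyte markers was 11.003 to 11.06 and 11.02 to 11.09 with 0 called. Of 10 genes of the hepatocytes around the portal vein, 6 were higher and 1 lower at an unadjusted p under 0.05 with a median of 0.45, and of 10 genes of those around the central vein 0 were higher and 5 lower with a median of -0.25. The called gene of these 20 was Aldh3a2, a fatty aldehyde dehydrogenase that fell by 0.84 (adjusted p = 0.00167). The part of these cell types and zones in the P450 results was not tested, and fewer cells and less RNA per cell cannot be told apart here either.

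In eWAT, 5 of the 73 genes were called, 1 higher and 4 lower (6.85%), where 15.2% of all genes were called, 4.57% higher and 10.7% lower. At an unadjusted p under 0.05 there were 10 members (13.7%), against 29.8% of all genes. Members that did not overlap between the genotypes were 9 of 73 (12.3%), against 21.6% of all genes, and the median difference was 0.06 against 0.03. Most members lay below the eWAT median. Among those at or above it, 3 of 13 (23.1%) were called against 27.6% of all such genes.

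Cyp2c70, named above for its role in bile acids, was 3.04, 3.46, 3.13 and 3.19 in WT and 2.32, 2.52, 2.43 and 1.67 in KO eWAT. It fell by 0.97 (SE 0.18, adjusted p = 0.0117) without overlap. Its mean over both genotypes lay below the median of all eWAT values (3.15), and its WT mean of 3.20 above it. In KO livers the mean had been higher, and the changes in the 2 tissues differed by 1.93 (SE 0.33, adjusted p = 0.00366). The change in eWAT also differed from that in BAT by -0.92 (adjusted p = 0.0199), where Cyp2c70 had a difference of -0.05 (adjusted p = 0.871).

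Cyp2r1, a vitamin D 25-hydroxylase, was 3.76, 3.69, 3.33 and 3.32 in WT and 2.75, 3.09, 2.42 and 2.31 in KO eWAT, and fell by 0.88 (SE 0.18, adjusted p = 0.0147) with no overlap. Its mean over both genotypes also lay below the median of all eWAT values (3.15), and its WT mean of 3.52 above it. Without WT mouse 2 the adjusted p was 0.0511. Its change in eWAT differed from that in liver (0.18) by -1.06 (adjusted p = 0.017) and from that in BAT (0.19) by -1.07 (adjusted p = 0.0215). In iWAT Cyp2r1 was 5.12, 5.14, 3.79 and 3.93 in WT and 2.81, 4.601, 2.74 and 3.57 in KO mice (difference -1.06, adjusted p = 0.32), with overlap. Its 3 highest iWAT arrays, WT mice 1 and 2 and KO mouse 2, were also the 3 with the most B cell and T cell marker signal. Without the 4 lymphocyte-rich arrays the difference was -1.08 (SE 0.15, adjusted p = 0.0176), the only call among the members in iWAT under that choice. Of all genes 3.72% were called under it.

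Cyp2s1, a P450 found mainly in epithelia and other tissues outside the liver, was 4.26, 3.84, 3.54 and 4.61 in WT and 3.37, 3.17, 2.97 and 3.20 in KO eWAT. It fell by 0.89 (SE 0.21, adjusted p = 0.0217) with no overlap, and the call was lost without WT mouse 1, KO mouse 3 or KO mouse 4 (adjusted p from 0.0514 to 0.0613). The mean of 4 mesothelial markers in eWAT was 4.34 to 5.95 in WT and 4.01 to 4.26 in KO mice. Of these 4 markers 2 were called lower, where 10.7% of all genes were. Their part in the Cyp2s1 result was not tested.

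Cyp1b1, which hydroxylates estradiol and polycyclic hydrocarbons, was 6.71, 7.10, 6.73 and 6.96 in WT and 5.22, 6.72, 5.44 and 5.56 in KO eWAT. KO mouse 2 lay inside the WT range and the other KO mice well below it. Cyp1b1 fell by 1.14 (SE 0.28, adjusted p = 0.0268). Without KO mouse 2 the difference was -1.47 (adjusted p = 6.04e-05), and the call was lost without any other single mouse (adjusted p from 0.0553 to 0.0822). The 7 genes used above as stellate cell and fibroblast markers in liver had means of 7.43 to 7.77 in WT and 6.19 to 7.31 in KO eWAT. KO mouse 2 was again the highest KO mouse. Of these genes 6 of 7 were called lower, where 10.7% of all genes were. Their part in the Cyp1b1 result was not tested.

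**Figure D4:**
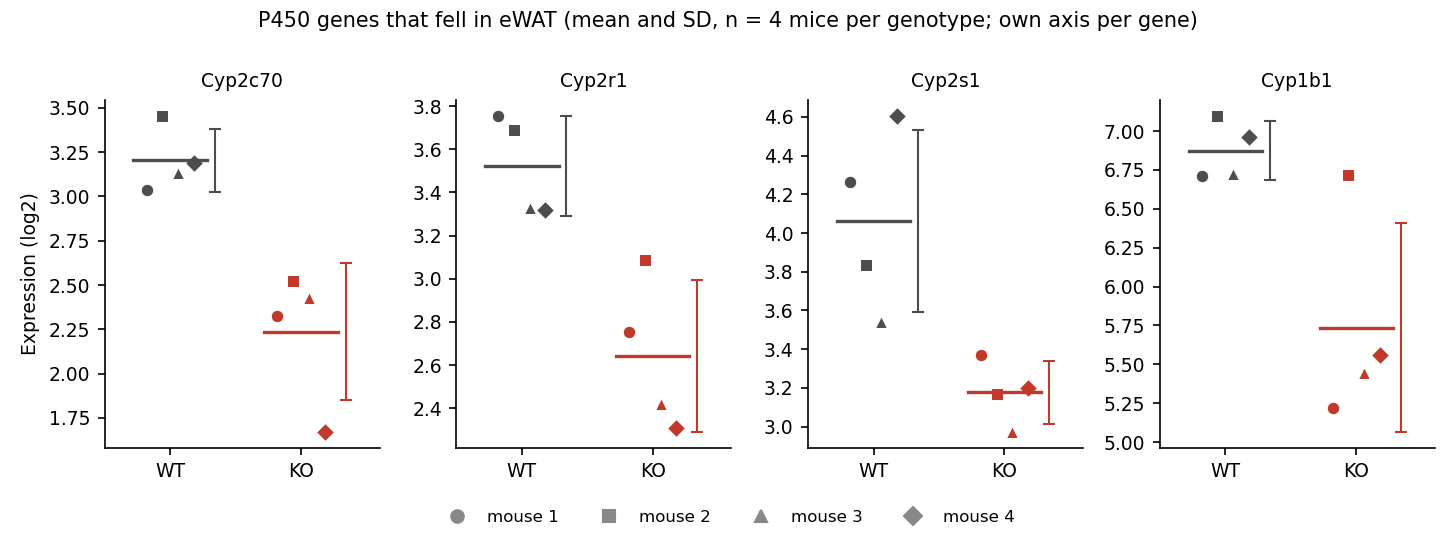
Expression (log2, vertical axis, a separate range for each gene) of the 4 P450 genes that fell in KO eWAT, 1 symbol per mouse with the mean as a line and the SD as a bar. KO values lay below all WT values for Cyp2c70, Cyp2r1 and Cyp2s1, and for Cyp1b1 the square of KO mouse 2 (6.72) lay inside the WT range.

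The partners of the P450 enzymes were measured too. In eWAT, of 5 genes for electron transfer and heme supply, Por, the oxidoreductase that feeds all of these enzymes, rose by 0.73 (adjusted p = 0.026) and Cyb5a, the cytochrome b5 that can pass on a second electron, rose by 0.50 (adjusted p = 0.0173). Cyb5r3, a reductase of cytochrome b5, fell by 0.71 (adjusted p = 0.0226), and Cyb5b and Alas1 were not called. In liver, iWAT and BAT 0 of these 5 genes were called by limma, with 1, 1 and 3 lower at an unadjusted p under 0.05. Of 11 nuclear receptors and other regulators, Ppara (0.49, adjusted p = 0.0205) and Pparg (0.61, adjusted p = 0.0203) rose in eWAT, where 15.2% of all genes were called. In the other 3 tissues 0 regulators were called, and 3, 0 and 2 were lower at an unadjusted p under 0.05 in liver, iWAT and BAT. The shares of all genes at that level were 13.3%, 15.4% and 12.7%.

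Known targets of the same receptors that are no P450 were called in both directions in eWAT, where 15.2% of all genes were called. Of 15 PPARα targets 1 rose (Ehhadh, a peroxisomal fat oxidation enzyme, 0.95) and 4 fell, among them Cpt1a (-1.22) and Plin2 (-1.06). Of 15 CAR and PXR targets 1 rose (Por) and 2 fell (Gadd45b, -1.08, and Gstm1, -0.62), and of 5 measured AhR targets 1 fell (Lpcat2, -0.55). In liver 1 of the 15 CAR and PXR targets was called, the transporter gene Abcc3, which fell by 0.53 (adjusted p = 0.0288). Of the AhR targets 0 were called there, with 1 higher at an unadjusted p under 0.05. Of all liver genes 0.661% were called and 13.3% passed at the unadjusted level.

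In iWAT, 0 of the 73 genes and 0% of all genes were called by limma. At an unadjusted p under 0.05 there were 4 higher and 3 lower members, 9.59% against 15.4% of all genes. Among members at or above the iWAT median the share was the other way round, 5 of 16 (31.2%) against 21.7% of such genes. Without the lymphocyte-rich arrays 7 members were higher and 5 lower at that level, 16.4% against 23.4% of all genes. The smallest p belonged to Cyp2f2, a P450 known for naphthalene oxidation in the lung, which was 4.32, 3.41, 4.72 and 3.65 in WT and 4.997, 5.24, 5.33 and 5.32 in KO mice (difference 1.20, SE 0.26, adjusted p = 0.221, and 0.98 with an adjusted p of 0.143 without the lymphocyte-rich arrays). All its KO values lay above all WT values, as they did for Cyp2e1, Cyp2w1 (difference 0.43) and Cyp1a1 (0.35), 5.48% of the members against 8.15% of all genes (2 of the 16 members at or above the median, 12.5% against 9.79%). Cyp2w1 lies on the chromosome of Gpr146, as given above. In eWAT Cyp2f2 lay below the table median and was 0.48 higher without overlap (adjusted p = 0.118).

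In BAT, 0 of the 73 genes were called by limma, where 0.0284% of all genes were, 0.00406% higher and 0.0243% lower, and 3 members were higher and 1 lower at an unadjusted p under 0.05, 5.48% against 12.7% of all genes. Cyp4v3, a fatty acid hydroxylase, was the lower one, with 7.55, 7.75, 7.79 and 7.59 in WT and 7.52, 7.57, 7.16 and 7.31 in KO mice (difference -0.28, adjusted p = 0.314). Its differences in eWAT and iWAT were both -0.44 (adjusted p = 0.103 and 0.307), and in liver -0.15 (adjusted p = 0.442). The others were Cyp4a32, Cyp2d12 (0.23) and Cyp2c55 (0.60), of which Cyp2c55 overlapped between the genotypes. Without overlap were Cyp4a32, Cyp2d12 and Cyp2c29 (0.17), all below the BAT median, 4.11% of the members against 7.23% of all genes. Without the muscle-rich arrays 0 members were called by limma. At an unadjusted p under 0.05, 3 were then higher and 2 lower, 6.85% against 7.13% of all genes. The mean of 5 brown adipocyte markers in BAT was 8.89 to 9.15 in WT and 8.34 to 8.66 in KO mice. All KO means of this list lay below all WT means, and its part in the P450 results was not tested.

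Set against each other, the changes in liver and eWAT differed for 8 of the 73 genes, where 8.53% of all genes were called in this test and 21.7% had an unadjusted p under 0.05. At that level there were 18 members. In addition to Cyp2e1, Cyp4a14, Cyp3a25, Cyp2c70 and Cyp2r1 these were Cyp2s1 (1.05, adjusted p = 0.0138), Cyp1b1 (1.14, adjusted p = 0.0324) and Cyp2c67 (-0.46, adjusted p = 0.0296), given as liver minus eWAT. For eWAT minus BAT 2 members were called (5.98% of all genes), Cyp2c70 and Cyp2r1. Without the muscle-rich arrays of BAT 0 members and 0.11% of all genes were called (adjusted p = 0.128 and 0.152 for these 2). For eWAT minus iWAT 0 members were called (0.0243% of all genes) and for iWAT minus BAT 0 (0%). At an unadjusted p under 0.05 the members were 9 for eWAT minus BAT, 4 for eWAT minus iWAT and 3 for iWAT minus BAT, against 19.7%, 9.52% and 9.74% of all genes. Each tissue used its own arrays, but the mice may be the same. Over all genes, the deviations of equally numbered mice from their group means correlated best with each other for 7 of 8 mice in eWAT and BAT, 5 of 8 in eWAT and iWAT, 5 of 8 in liver and eWAT and 3 of 8 in iWAT and BAT.

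**Figure D5:**
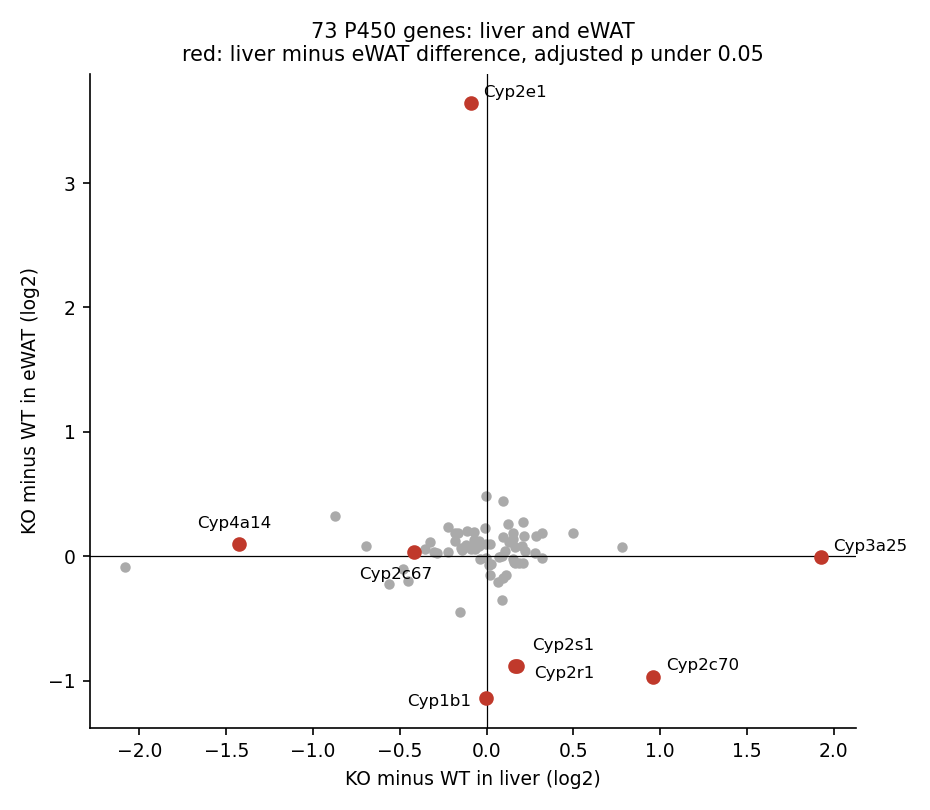
Difference between KO and WT mice in liver (log2, horizontal axis) and in eWAT (log2, vertical axis), 1 point per gene, with the 8 genes in red whose changes differed between the tissues. Cyp2e1 stands at 3.64 in eWAT near 0 in liver, Cyp3a25 and Cyp4a14 at 1.93 and -1.43 in liver near 0 in eWAT, and Cyp2c70 at 0.96 in liver and -0.97 in eWAT.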

How the data were processed

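RNA (100 ng) of each tissue was labelled with biotin and hybridized to Affymetrix Mouse Gene 2.1 ST arrays. For each tissue the authors deposited a table of log2 values with a row for each gene symbol and a column for each array. The normalization, the software and the genome build are not given in the sources used here, and array files give no depth, so that the number of arrays limits the precision. Rows with a blank name or a name turned into a number (1 or 2 per table) were left out. Within a tissue, limma 3.58.1 (in R 4.3.3) contrasted the genotypes and p-values were adjusted over all 24646 genes. Changes of 2 tissues were compared by a contrast over their 16 arrays. The array medians of the tables lay between 2.82 and 3.73.

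The members and gene lists were chosen with earlier results of these data known. Members named are all that passed the threshold, or the 5 with the smallest p, Cyp2e1, all Cyp4a genes, up to 6 members per pair of tissues with differing changes, and the most changed gene of each larger subfamily in liver. The choice of any other member named followed its values. Symbols were matched to GRCm38.p6 (72 of 73). Of the listed genes, Ugt1a6a, Ugt1a6 and Trac had no row. A protein motif that had been planned was not searched. Further lists were B cells (0 called of 5 in each tissue), T cells (0 of 4) and skeletal muscle (0 of 6), whose high arrays are given above, neutrophils (0 of 4), mammary epithelium (0 of 5), epididymis (0 of 6) and cholangiocytes (0 of 3), all by limma, with 0 to 2 genes of a list at an unadjusted p under 0.05. Alternatives were other normalizations, priors and weights, dim genes left out, blocks of equal mouse number, each array left out and the methods' t-test. Leaving out arrays with a B cell (iWAT) or muscle (BAT) marker mean above 5 was added after seeing the data. The procedure was tested on simulated data. Figures were drawn with matplotlib 3.10.9.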

Additional observations from a re-analysis of the deposited data

Results flagged for a closer look

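In groups of 4 mice, 3 of 94 groups examined held a mouse far from the other 3 (3.19%, where chance alone marks about 5%). These were Cyp2s1 in liver, with KO mouse 4 at 2.83 and the others at 2.57 to 2.59, Cyp4a14 in liver, with KO mouse 2 at 9.56 and the others at 8.30 to 8.46, and Cyp1a1 in iWAT, with KO mouse 2 at 3.31 and the others at 2.80 to 2.88.

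Changes differed between tissues by limma in 10 cases. For liver minus eWAT these were Cyp2e1 (-3.73, adjusted p = 0.00671), Cyp2c70 (1.93, 0.00366), Cyp3a25 (1.93, 0.0173), Cyp4a14 (-1.53, 0.0111), Cyp1b1 (1.14, 0.0324), Cyp2r1 (1.06, 0.017), Cyp2s1 (1.05, 0.0138) and Cyp2c67 (-0.46, 0.0296), and for eWAT minus BAT they were Cyp2r1 (-1.07, 0.0215) and Cyp2c70 (-0.92, 0.0199). For liver minus eWAT, Cyp2e1, Cyp2c70 and Cyp4a14 had an adjusted p under 0.05 whichever 1 mouse number was left out (largest 0.0333, 0.0203 and 0.0492). The call was lost in 2 of 8 such fits for Cyp2s1 (largest adjusted p 0.0547) and for Cyp3a25 (0.0608), in 3 for Cyp2r1 (0.0624), in 5 for Cyp2c67 (0.0918) and in 7 for Cyp1b1 (0.119). For eWAT minus BAT it was lost in 4 for Cyp2c70 (0.0834) and in 5 for Cyp2r1 (0.0859).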

How the results depend on the processing

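Called members in liver were 1 by the fit as given, 3 with equal array medians, 4 with dim genes left out, 2 with array weights, 0 by the methods' t-test with adjustment, 14 without adjustment, and from 0 to 3 without any one array. The shares of all tested genes called were 0.661%, 0.876%, 2.05%, 0.755%, 0.00811% and 11.8% in that order. Without any one array they ran from 0.166% to 1.22%. With a trended and robust prior (0.795% of all genes called) the 1 called member was Cyp2c67 and not Cyp4a14 (adjusted p = 0.116). In eWAT the called members were 5, 3 with dim genes left out, which removes Cyp2c70 and Cyp2r1, 9 with array weights, 0 by the methods' t-test with adjustment, 9 without, and from 3 to 7 without any one array (7 without KO mouse 2). The shares of all tested genes called were 15.2%, 31.1%, 21.5%, 0.154% and 27.6% in that order. Without any one array they ran from 5.88% to 22% (22% without KO mouse 2). Cyp2e1 in eWAT had an adjusted p of 0.0718 by the methods' t-test (difference 3.64). Without adjustment that test called 5 members in iWAT (12.8% of all genes) and 4 in BAT (11.4%), where Cyp2e1 in iWAT (2.83) had a p of 0.0147. For eWAT minus BAT the per-mouse difference gave 4 called members (6.93% of all genes), and leaving out a mouse gave from 0 to 6 (6 without KO mouse 2, where 10.8% of all genes were called). For liver minus eWAT, leaving out a mouse gave from 4 to 11. These were 4 without KO mouse 4 (3.95% of all genes) and 11 without KO mouse 2 (13.7%). The cause of these shifts was not tested except for the dim genes.

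The main fits did not pair the mice by replicate number. The correlation of the deviations of same-numbered WT and KO mice ran from -0.385 to 0.669 and was not above 0.1 for every pair in any tissue. Such correlations cannot exclude a shared litter, cage or batch. With the replicate number as a block the called members were 0 in liver (Cyp4a14 adjusted p = 0.0875), 5 in eWAT, 0 in iWAT and 0 in BAT. Of all genes 0.767%, 13.8%, 0.00406% and 0% were called. With the mouse number as a random block across tissues the called members were 8 for liver minus eWAT (8.76% of all genes) and 2 for eWAT minus BAT (6.93%). They were 0 for eWAT minus iWAT (0.0243%) and for iWAT minus BAT (0.0284%).

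Without the lymphocyte-rich arrays, an alternative chosen after seeing the data, 1 member was called in iWAT (Cyp2r1), where 3.72% of all genes were called. Without the muscle-rich arrays 0 members were called in BAT (0% of all genes) and 0 for eWAT minus BAT (0.11%).

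Signs turned for values near 0. They were Cyp3a25 in eWAT (0.087 with array weights, from -0.11 to 0.065 without any one array), Cyp4a31 in iWAT (-0.038 with quantile normalization, -0.0065 with equal medians, -0.037 with array weights, from -0.069 to 0.13), Cyp4a32 in iWAT (-0.0047 with quantile normalization), Cyp4a14 in iWAT (from -0.17 to 0.021), Cyp4a10 in BAT (from -0.10 to 0.32) and Cyp2c70 in BAT (from -0.10 to 0.0027).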
